A study of Mus musculus with 8 samples.

Results

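The genes described are the nuclear-encoded subunit genes of oxidative phosphorylation, the respiratory chain and ATP synthase of the inner mitochondrial membrane. They were chosen by symbol alone, as every gene whose name begins with Nduf followed by a, b, c, s or v and a digit, with Uqcr, with Cox and a digit from 4 to 8, or with Atp5, together with Sdha, Sdhb, Sdhc and Sdhd. Though the members and lists were chosen with earlier results of these data known, the rule itself uses no measured value. It gave 80 of the 16160 genes in the deposited table. By name, 36 were placed in complex I, 4 in complex II, 8 in complex III, 15 in complex IV and 17 in complex V. All 80 passed the filter on low counts and are therefore tested below.

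RNA-Seq was done on monocytic cells sorted from BM of wild type C57BL/6 mice as CD11c-CD11b+Ly6G-SiglecF-Ly6Chi and then separated by CD115, the M-CSF receptor, product of Csf1r. The sorted monocytic myeloid-derived suppressor cells (M-MDSCs), cells known for restraining T cells, were named tCD115- and tCD115+. They came from tumor-bearing (TB) mice at day 21 after inoculation of EL4, a lymphoma line of mouse T cells, and CD115- and CD115+ monocytes (nCD115- and nCD115+) came from naive, tumor-free mice. Each of the 4 groups had 2 libraries, called biological replicates by the study, and no source used here says how many mice gave each library. The subsets differ in surface CD115 by construction of the sort, every group is a mixture of whatever cells pass the same gate, and the tumor groups stand for 1 transplanted tumor line at 1 time.

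Oxidative phosphorylation passes electrons from NADH through complex I (NADH dehydrogenase), or from succinate through complex II (succinate dehydrogenase), to ubiquinone, then through complex III (cytochrome bc1) and cytochrome c to complex IV (cytochrome c oxidase), which reduces oxygen. Complexes I, III and IV pump protons, and complex V (ATP synthase) uses the gradient to make ATP. Most subunits are encoded in the nucleus and imported, while a few hydrophobic subunits of every complex but complex II are encoded by mitochondrial DNA, and those were not analysed here. Monocytes and macrophages use the chain for ATP and as a source of reactive oxygen and of signals from succinate, and neutrophils are known for relying more on glycolysis.

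Library totals ranged from 69692398 to 95353798 reads (median 91432632), so counting error limits most the 6 members with a mean below 10 CPM (counts relative to library size, with the libraries scaled by TMM, the trimmed mean of M-values). Across all 13211 genes tested, edgeR called 17.7% higher and 19.9% lower in tCD115- against tCD115+, and 12.3% passed the study's thresholds of 2-fold and an adjusted p under 0.05. The markers of other cell types moved with these groups. The summed level of 12 neutrophil granule genes was 38849 to 59748 CPM in tCD115- and 26708 to 35185 CPM in nCD115-, against 2115 to 2297 CPM in tCD115+ and 1191 to 1442 CPM in nCD115+. The summed level of 10 monocyte genes was 3229 to 5102 CPM in tCD115-, 6206 to 7017 CPM in nCD115-, 8910 to 9058 CPM in tCD115+ and 9324 to 10484 CPM in nCD115+. The 10 genes of the cell cycle summed to 4992 to 5250 CPM in tCD115- and 4173 to 4394 CPM in tCD115+, against 3600 to 4032 CPM in nCD115- and 2885 to 3102 CPM in nCD115+. In bulk samples, fewer cells of a type and less RNA per cell cannot be told apart.

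Promoters of respiratory chain genes are known for sites of NRF1, of the ETS factor GABPA, of YY1 and of the estrogen-related receptor ERRA, which ties subunits of different complexes to shared regulators. RefSeq promoter windows (build GRCm38.p6, 250 bases before to 50 after the start site) matched 67 of the 80 members. The letters searched, on both strands, were GCATGCGC for NRF1, CCGGAAG for ETS/GABPA, AAGATGGCG for YY1 and AAGGTCA for ERRA. AAGATGGCG was in the windows of 8 members (11.9%), against 3.48% of 10460 tested genes with a window and 1.64% of all 27025 genes with a window. AAGGTCA was in those of 8 members (11.9%, against 3.96% of tested and 5.38% of all genes), GCATGCGC in those of 10 (14.9%, against 5.86% and 3.05%) and CCGGAAG in those of 16 (23.9%, against 20.0% and 9.93%). At least 1 of the 4 was in the windows of 32 members, or 47.8%, against 29.8% of tested and 18.4% of all genes. These are matches of letters, not sites shown to be bound.

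The YY1 letters were shown because they lay at nearly the same place in members with complex I names and in Atp5j2 and Atp5sl, which carry complex V names. In 7 of the 8 members they began 23 to 36 bases after the start site and read on the strand of the gene. Of 364 tested genes with these letters, 222 (61.0%) had them after the start site, beginning at bases 1 to 42. In 195 of these genes they read on the strand of the gene. From another start site of Atp5sl, its letters began 53 bases before. The letters include ATG, and where translation starts is not given here. The 7 sites and that of Atp5j, whose match begins 88 bases before a start site, are given over 30 bases, 5′ to 3′ on the strand of the gene, with the matched letters in capitals.
Ndufa9 (chr6:126849096-126849125, minus): attgtgggagAAGATGGCGgccgccgtccg
Ndufc1 (chr3:51408914-51408943, minus): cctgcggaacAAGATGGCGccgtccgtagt
Ndufs4 (chr13:114388045-114388074, minus): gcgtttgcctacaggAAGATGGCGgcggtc
Ndufs6 (chr13:73328433-73328462, minus): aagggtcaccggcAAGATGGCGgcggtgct
Ndufs7 (chr10:80249463-80249492, plus): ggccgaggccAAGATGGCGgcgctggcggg
Atp5j2 (chr5:145191499-145191528, minus): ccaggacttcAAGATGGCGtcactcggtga
Atp5sl (chr7:25619430-25619459, plus): gttacctggcAAGATGGCGgcgcccagagc
Atp5j (chr16:84835045-84835074, minus): aagtgtaggaAAGATGGCGgagtcttagct

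Sites of the other factors are given for 3 of the members called below between groups, picked as examples after their values were seen; other called members hold such letters too. Sdhb held both NRF1 and ETS/GABPA letters, Ndufb7 held ETS/GABPA letters, and Atp5j held them near its YY1 letters.
Sdhb, NRF1 letters (chr4:140961206-140961235, plus): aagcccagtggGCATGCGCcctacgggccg
Sdhb, ETS/GABPA letters (chr4:140961266-140961295, plus): gctcggagaaaCCGGAAGcggccttccact
Ndufb7, ETS/GABPA letters (chr8:83566727-83566756, plus): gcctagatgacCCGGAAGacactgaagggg
Atp5j, ETS/GABPA letters (chr16:84835019-84835048, minus): agctgagggacCCGGAAGcacttaccctcc

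Of the 5 members called higher in TB mice in both subsets, described below, the windows of Atp5b, Cox5a, Cox5b and Ndufa12 held none of the 4 letter strings.

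Levels per transcript length, given as the mean of the authors' FPKM values over the 8 libraries, were higher for each complex in the order I to V when taken as medians. The median member had 65.8 FPKM in complex I, 96.7 FPKM in complex II, 100.3 FPKM in complex III, 151 FPKM in complex IV and 173 FPKM in complex V. Atp5b, the catalytic beta subunit of ATP synthase, was highest at 448 FPKM, followed by Cox4i1 at 379 FPKM and Atp5a1, the alpha subunit, at 353 FPKM. In complex I the highest member was Ndufa4 at 214 FPKM. Its protein, long listed with complex I and named for it, is now assigned to complex IV. After Cox4i1, the highest members with a complex IV name were Cox8a at 314 FPKM, Cox6a1 at 272 FPKM and Cox6b1 at 259 FPKM.

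The isoform pairs of complex IV were far apart. The ubiquitous Cox4i1, Cox6a1 and Cox6b1 stood at the levels above, whereas Cox4i2, the isoform known for lung and for hypoxia, had 0.141 FPKM, and Cox6a2, the heart and skeletal muscle isoform, had 0.177 FPKM. Cox7a1, also of heart and muscle, had 0.767 FPKM, against 106 FPKM for its ubiquitous counterpart Cox7a2. Cox6b2, known as the testis isoform, was measured at 13.2 FPKM. The 3 genes for the c subunit of the ATP synthase ring, which encode the same mature protein, had 63.7 FPKM (Atp5g1), 190 FPKM (Atp5g2) and 203 FPKM (Atp5g3), so Atp5g1 was the lowest of them.

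Some low values have a measured reason for care. Ndufs5, an accessory subunit of complex I, had 6.19 FPKM and 206 to 448 reads per library, while BC002163, a gene whose transcript is near identical to it, had 2227 to 2921 reads, and how reads were assigned between these genes is not stated. At 97% identity over 100 bases, 17 of the 79 members found in GENCODE M21 had such a copy elsewhere in the annotated transcripts, and 25 overlapped an exon of a gene on the other strand. No source used here states whether reads were counted by strand, so reads of such overlapping pairs cannot be told apart. Atp5s at 1.40 FPKM and Atp5sl at 15.2 FPKM carry ATP synthase names, but their proteins are not structural subunits, and that of Atp5sl is known in human cells for complex I assembly.

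**Figure D1:**
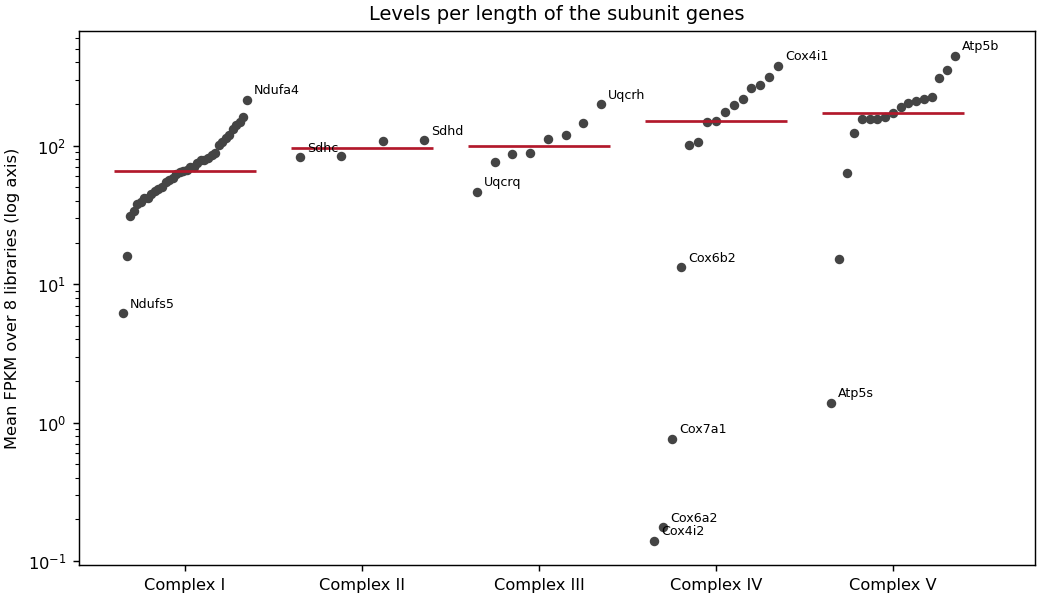
Mean FPKM of each of the 80 members over the 8 libraries on a log axis, with 1 point per gene ordered within its complex and the median of each complex as a red line. The medians run from 65.8 FPKM in complex I to 173 FPKM in complex V, and Cox4i2, Cox6a2, Cox7a1 and Atp5s lie far below the rest.

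Summed over the 80 members, the level was 8417 and 9348 CPM in tCD115-, 9625 and 9669 CPM in tCD115+, 7722 and 8067 CPM in nCD115-, and 7976 and 8360 CPM in nCD115+. Both tumor groups thus lay above both naive groups, and tCD115+ lay above tCD115-. The 2 tCD115- libraries stood apart from each other, with 76 of the 80 members higher in replicate 1 than in replicate 2. Their median difference was 0.18 on the log2 scale, against 51.4% of all genes tested higher and a median of 0.01. Members also leaned to replicate 1 in nCD115+ (70 of 80, median 0.07, 49.2% of all genes) and nCD115- (61, median 0.06, 50.6%). In tCD115+, 28 were higher in replicate 1 (median -0.03, 50.1% of all genes). Replicate 1 of tCD115- also had the higher summed level of neutrophil granule genes of its group (59748 against 38849 CPM). The part of that difference in the members' values was not tested.

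In complexes II to V both tCD115+ libraries lay above the other 6, by a narrow margin in complexes III (916 and 917 against at most 896 CPM) and IV (1661 and 1671 against at most 1660 CPM). Complex V summed to 4016 and 4023 CPM in tCD115+, against 3453 and 3782 CPM in tCD115- and 3076 to 3342 CPM over the 4 naive libraries. Complex II summed to 687 and 705 CPM in tCD115+ and to 570 and 596 CPM in tCD115-, and the latter overlapped the 536 to 609 CPM of the naive libraries. In complex I the tCD115+ libraries, at 2334 and 2363 CPM, lay between the 2126 and 2414 CPM of the 2 tCD115- libraries.

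**Figure D2:**
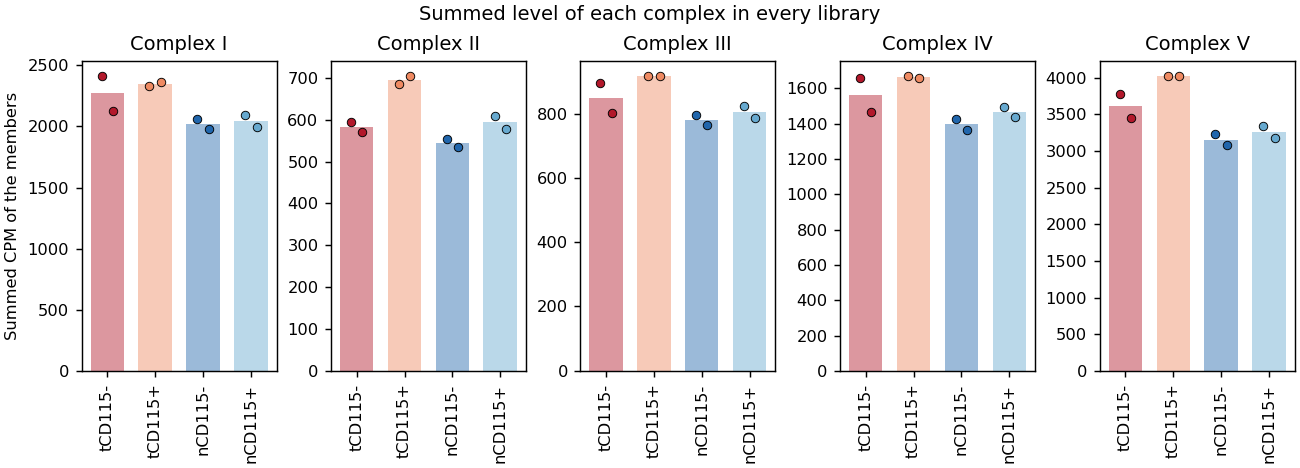
Summed CPM of the members of each complex, with 1 point per library and bars at the mean of the 2 libraries of a group. In complexes II to V both tCD115+ libraries lie above all others, and in complex I they lie between the 2 tCD115- libraries.

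The first comparison asks how the 2 M-MDSC subsets of TB mice differ. In tCD115-, 6 members were higher and 16 lower than in tCD115+ at an adjusted p under 0.05 (edgeR, quasi-likelihood, with Benjamini-Hochberg adjustment over all genes), against 17.7% higher and 19.9% lower over all genes tested. As shares of the 80 members these are 7.5% and 20%, so the share called lower was near that of all genes and the share called higher was below it. No member passed the 2-fold threshold (12.3% of all genes did), at which DESeq2 called 1 member. The median log2 fold change was -0.10, with 24 members positive and 56 negative, beside a median of -0.05 over all genes. Both tCD115- libraries lay above both tCD115+ libraries for 8 members (31.4% of all genes did) and below them for 34 (40.1% of all genes did).

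Calls in both directions occurred within complexes I, III, IV and V. Complex I had 2 members higher and 7 lower. Of the 7 nuclear-encoded core subunits, which carry the flavin and the iron-sulfur clusters, 4 were lower and none higher, and of the other 29 genes with a complex I name, Ndufa4 included, 3 were lower and 2 higher. Complex II had 2 of 4 lower, complex III 1 higher and 2 lower, complex IV 2 higher and 2 lower, and complex V 1 higher and 3 lower. The 3 include Atp5sl, placed there by name only. The median coding length was 328.5 bases (249 to 1404) for the 6 members called higher and 672 bases (246 to 1659) for 15 of the 16 called lower. For the 58 members not called it was 390 bases. Over all genes it was 1450.5 bases for those called higher, 1365 bases for those called lower and 1353 bases for those not called.

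Ndufv3, an accessory subunit of the arm of complex I that binds NADH, had the largest difference among the members called. It was measured at 78.0 and 61.3 CPM in tCD115-, 34.3 and 35.6 CPM in tCD115+, 47.6 and 55.9 CPM in nCD115-, and 30.5 and 30.4 CPM in nCD115+. Every CD115- library lay above every CD115+ library. The log2 fold change of tCD115- over tCD115+ was 0.99 (SE 0.13, adjusted p = 0.00121, edgeR with Benjamini-Hochberg adjustment), and that call held under all 15 alternatives.

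Other small subunits were higher in tCD115-. Ndufb7, an accessory subunit of the membrane arm, was measured at 121 and 96.2 CPM in tCD115- and 82.2 and 81.8 CPM in tCD115+, Uqcrb of complex III at 80.5 and 64.6 against 55.5 and 58.2 CPM, and Cox7a2 of complex IV at 116 and 91.8 against 78.1 and 80.1 CPM. For these 3 genes the libraries did not overlap, but replicate 1 of tCD115- was well above replicate 2. Their log2 fold changes were 0.41 (SE 0.12), 0.35 (SE 0.11) and 0.39 (SE 0.11), with adjusted p of 0.0297, 0.0449 and 0.0283 in the edgeR with Benjamini-Hochberg adjustment. Cox6b2 (0.45, SE 0.11, adjusted p = 0.0154) and Atp5j (0.24, SE 0.08, adjusted p = 0.0442) completed the 6 in the same edgeR test with Benjamini-Hochberg adjustment. With scaling by library totals alone, with the 4 libraries compared fitted alone, and without either tCD115+ replicate, the calls of Ndufb7, Uqcrb, Cox7a2, Cox6b2 and Atp5j were lost. Of 15 alternatives, 10 kept the call of Ndufb7, 6 that of Uqcrb, 10 that of Cox7a2, 11 that of Cox6b2 and 4 that of Atp5j.

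The lowest adjusted p among members called lower belonged to Sdhb, the iron-sulfur subunit of succinate dehydrogenase whose NRF1 letters are given above. Sdhb was measured at 103 and 101 CPM in tCD115-, 140 and 142 CPM in tCD115+, 108 and 98.3 CPM in nCD115-, and 127 and 121 CPM in nCD115+. The 2 CD115- groups overlapped each other, and both lay below the CD115+ groups. The log2 fold change of tCD115- over tCD115+ was -0.47 (SE 0.07, adjusted p = 0.00306, edgeR with Benjamini-Hochberg adjustment). Of the other 3 genes of complex II, Sdhc, a membrane anchor, was called lower (-0.24, SE 0.07, adjusted p = 0.0284, edgeR with Benjamini-Hochberg adjustment), while Sdha, the flavoprotein, and Sdhd, the other anchor, had log2 fold changes of -0.20 each and missed the threshold (adjusted p = 0.0535 and 0.113 in the same edgeR test with Benjamini-Hochberg adjustment). All 4 genes of complex II were negative. The call of Sdhc held under 8 of 15 alternatives and was lost in DESeq2 and with DESeq2 size factors.

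In complex III the largest decrease was that of Uqcrq, a small subunit also known as ubiquinone-binding protein. Uqcrq was measured at 62.5 and 53.3 CPM in tCD115-, 92.0 and 86.4 CPM in tCD115+, 68.7 and 61.6 CPM in nCD115-, and 74.1 and 70.1 CPM in nCD115+. The tCD115+ libraries were the highest of the 8. The log2 fold change of tCD115- over tCD115+ was -0.62 (SE 0.10, adjusted p = 0.00347, edgeR with Benjamini-Hochberg adjustment). Uqcrfs1, the Rieske iron-sulfur protein, was lower as well (-0.30, SE 0.07, adjusted p = 0.0153 in the same edgeR test with Benjamini-Hochberg adjustment).

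In complex I the lowest adjusted p of a decrease was that of Ndufa10, an accessory subunit of the membrane arm, at 67.8 and 66.0 CPM in tCD115- and 85.8 and 87.2 CPM in tCD115+ (-0.37, SE 0.07, adjusted p = 0.00532, edgeR with Benjamini-Hochberg adjustment). The libraries of each group lay close together and the groups did not overlap. The calls of Sdhb, Uqcrq and Ndufa10 held under all 15 alternatives.

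**Figure D3:**
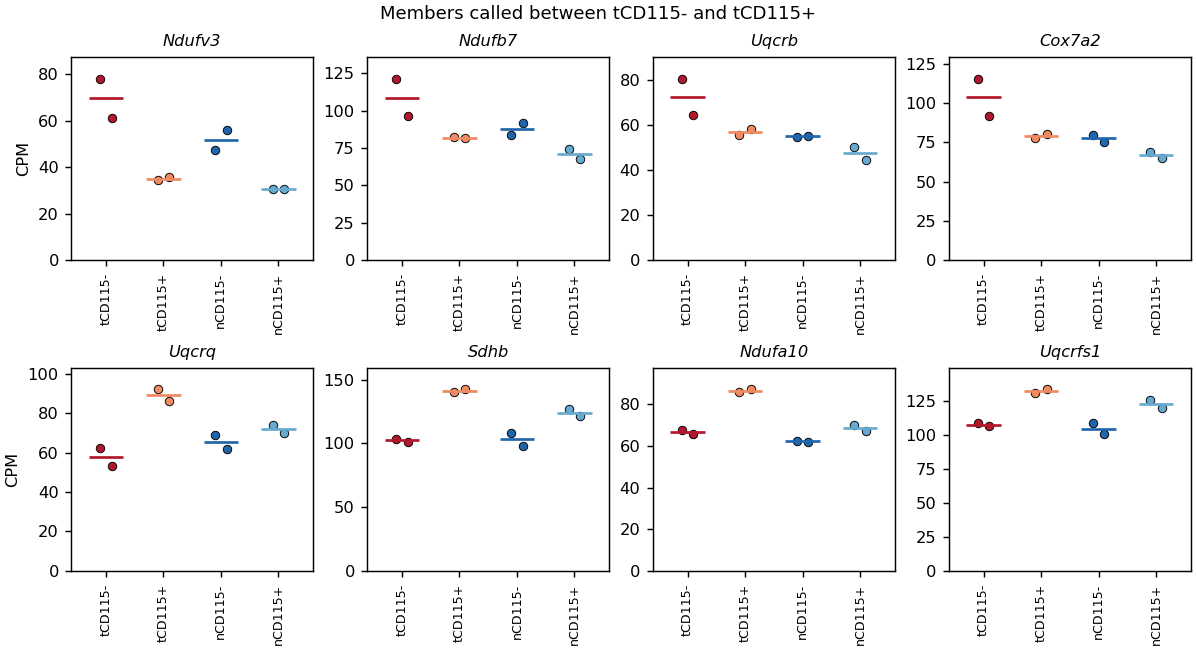
CPM of 8 members called between tCD115- and tCD115+, with 1 point per library and lines at the mean of 2 libraries. Ndufv3, Ndufb7, Uqcrb and Cox7a2 are higher in tCD115-, with its 2 libraries apart, and Uqcrq, Sdhb, Ndufa10 and Uqcrfs1 are lower, with Sdhb at 101 to 103 CPM in tCD115- and 140 to 142 CPM in tCD115+.

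The members of complex V and IV called lower included abundant ones. Atp5a1 was measured at 851 and 850 CPM in tCD115- and at 1046 and 1031 CPM in tCD115+ (-0.29, SE 0.07, adjusted p = 0.0199, edgeR with Benjamini-Hochberg adjustment). Atp5b, its partner in the catalytic hexamer, had 969 and 904 CPM in tCD115- against 989 and 1012 CPM in tCD115+ and missed the threshold (-0.09, SE 0.08, adjusted p = 0.355, edgeR with Benjamini-Hochberg adjustment). The 2 subunits of the hexamer thus differed in whether they were called, and the difference between them was not tested. Cox4i1 was lower (-0.26, SE 0.08, adjusted p = 0.0431), as was Cox7a2l, known for joining complexes III and IV into supercomplexes (-0.33, SE 0.09, adjusted p = 0.0245), both by the edgeR test with Benjamini-Hochberg adjustment. Among members with a complex V name, Atp5sl, whose protein is not a structural subunit, had the largest decrease (-0.55, SE 0.12, adjusted p = 0.0105, edgeR with Benjamini-Hochberg adjustment). The call of Cox4i1 held under 4 of 15 alternatives.

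The counts rested on single libraries, over all genes as well as over members. The members called higher numbered 2 and 11 without replicates 1 and 2 of tCD115-, and 1 without either replicate of tCD115+, and those called lower numbered 18 and 11, and 3 and 4, respectively. Over all genes the shares in these 4 fits were 15.2%, 20.6%, 10.3% and 10.1% higher and 14.7%, 24%, 7.19% and 7.32% lower. Without replicate 1 of nCD115- or of nCD115+ the count lower was 10 (15.1% and 15.8% of all genes). The median of the members was 0.00 without replicate 2 of tCD115-, and -0.17 without replicate 1. Scaling by library totals alone moved the median of all genes from -0.05 to -0.20 and called 1 member higher and 33 lower (13.7% and 31.3% of all genes), with the members' median at -0.24, so that their distance from all genes stayed at -0.04.

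In naive mice the same comparison of subsets gave 1 member higher and 2 lower in nCD115- relative to nCD115+ (edgeR, adjusted p under 0.05), against 11.8% higher and 3.23% lower over all genes, and 1 member past 2-fold against 6.21%. The median was -0.03, beside -0.01 over all genes. Both nCD115- libraries lay above both nCD115+ libraries for 18 members (33.4% of all genes) and below them for 28 (33.4% of all genes). Ndufv3 was again higher, by a log2 fold change of 0.77 (SE 0.13, adjusted p = 0.00649, edgeR with Benjamini-Hochberg adjustment), and Sdhb again lower, by -0.27 (SE 0.07, adjusted p = 0.0489, edgeR with Benjamini-Hochberg adjustment). The 2 comparisons of subsets share no library, but the shared fit gives both the same estimate of spread for each gene. The third member, Cox4i2, had no read in either nCD115- library and 9 and 12 reads in nCD115+, which is at least 6.44-fold lower in nCD115- when 3 counts over the group are taken as the floor, a bound that covers counting error only (adjusted p = 0.0373, edgeR with Benjamini-Hochberg adjustment).

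These calls were lost in several fits, with 12 of 15 alternatives keeping that of Ndufv3, 6 of 15 that of Sdhb and 6 of 13 that of Cox4i2. Leaving out 1 library changed how many members, and how many of all genes, were called. The members' median then ranged from -0.06 (without replicate 2 of nCD115+) to 0.00 (without replicate 2 of nCD115-). Without either tCD115- replicate, 5 members were called higher and 7 lower (16.9% of all genes higher in each fit, and 13.3% and 13.1% lower), although those libraries are not part of this comparison and enter it only through the shared fit. By library totals alone 1 was higher and 12 lower (9.66% and 7.7% of all genes), with the median of all genes moved from -0.01 to -0.12.

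The interaction, the difference between the subset effects of TB and naive mice, was called for no member and for no gene (0% of all genes higher, 0% lower and 0% past 2-fold). At an unadjusted p under 0.05, 3 members were past the threshold, 1 higher and 2 lower, and 751 of all genes. DESeq2 called no member, and over all genes it called 72 higher and 17 lower. The smallest adjusted p of a member was that of Uqcrq, whose subset difference was -0.62 in TB and -0.15 in naive mice (interaction -0.48, SE 0.14, adjusted p = 0.808, edgeR with Benjamini-Hochberg adjustment). Members called between the subsets of TB mice alone are therefore not shown to differ between the hosts.

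**Figure D4:**
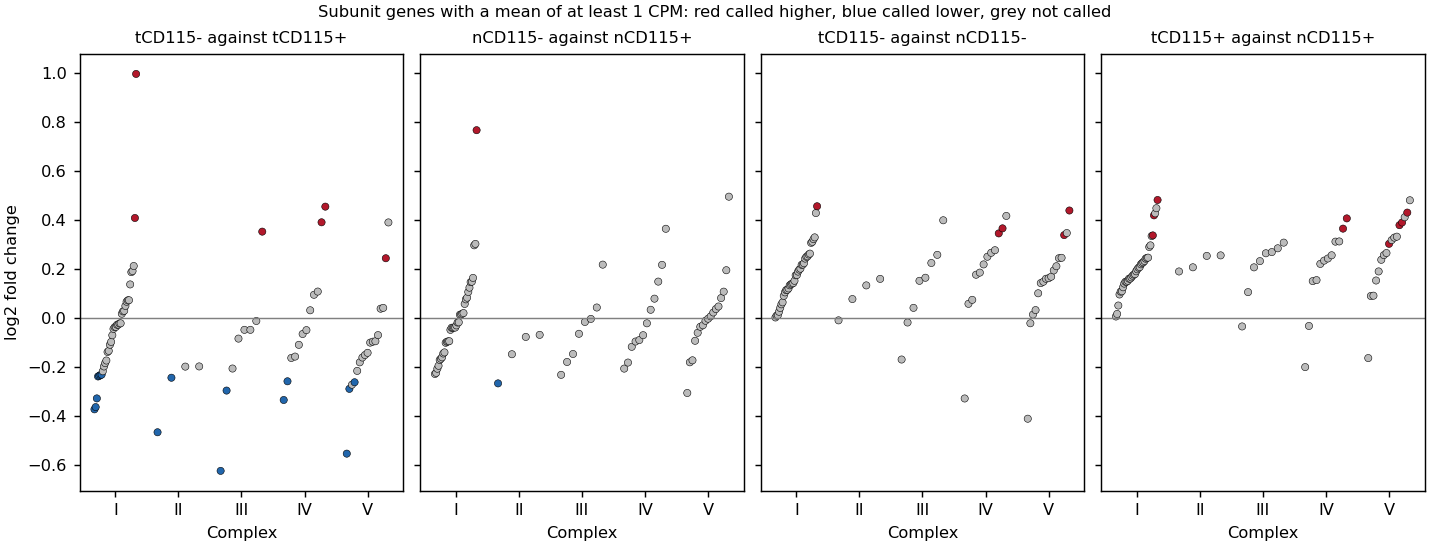
Log2 fold changes of the 77 members with a mean of at least 1 CPM, by complex and comparison, with 1 point per gene, red where called higher, blue where called lower and grey where not called. Both colours appear between the TB subsets, whereas in the 2 comparisons of hosts nearly all points lie above 0.

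The comparisons of hosts ask what the tumor changes within each subset. In tCD115-, 5 members were higher and none lower than in nCD115- (edgeR, adjusted p under 0.05), against 3.19% higher and 6.49% lower over all genes. In tCD115+, 9 were higher and none lower than in nCD115+, against 6.09% higher and 4.2% lower. At an unadjusted p under 0.05, 28 members were higher and 2 lower in the CD115- subset, against 14.3% and 17.4% of all genes, and 37 were higher and 0 lower in the CD115+ subset, against 17.2% and 12.1%. DESeq2 called 16 higher and 2 lower in the former (9.75% and 10.8% of all genes) and 16 higher and 0 lower in the latter (8.86% and 8.46%). No member passed 2-fold in either (3.29% and 2.6% of all genes did), in edgeR or in DESeq2.

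No member of complex II or III was called in either host comparison. The median log2 fold change was 0.17 in the CD115- subset, with 72 members positive and 8 negative, and 0.23 in the CD115+ subset, with 76 positive and 4 negative, while over all genes the medians were 0.00 and 0.02. All 36 members of complex I were positive in both comparisons. Both tCD115+ libraries lay above both nCD115+ libraries for 71 members, against 36.3% of all genes, and below them for 2, against 31.1%. Both tCD115- libraries lay above both nCD115- libraries for 50 members, against 28.3% of all genes, and below them for 2, against 30%. By complex, the median in the CD115+ subset was 0.19 for complex I, 0.23 for complex II, 0.25 for complex III, 0.26 for complex IV and 0.30 for complex V. In the CD115- subset it was 0.17, 0.10, 0.16, 0.22 and 0.16 in the same order.

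The 5 members called higher in tCD115- were all among the 9 called higher in tCD115+. The comparisons share no library, but the shared fit gives both the same estimate of spread for each gene. Their calls are therefore not independent, and how many of all genes were called in both was not counted. The 5 members are Atp5b and Atp5j of the ATP synthase, Cox5a and Cox5b, nuclear-encoded subunits of cytochrome c oxidase, and Ndufa12 of complex I. Atp5j encodes coupling factor F6 in the stalk of the synthase. It was measured at 133 and 120 CPM in tCD115- and 93.2 and 94.1 CPM in nCD115-, and at 104 and 110 CPM in tCD115+ and 84.4 and 79.2 CPM in nCD115+. In each subset both tumor libraries lay above both naive ones. The log2 fold changes were 0.44 (SE 0.08, adjusted p = 0.022) and 0.39 (SE 0.08, adjusted p = 0.0278) in the edgeR with Benjamini-Hochberg adjustment. Atp5j overlaps Gabpa, the ETS factor gene on the other strand that starts beside it, whose own log2 fold changes were 0.18 and 0.25 and were not called (adjusted p = 0.15 and 0.081, edgeR with Benjamini-Hochberg adjustment).

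Atp5b was measured at 969 and 904 CPM in tCD115- and 749 and 733 CPM in nCD115-, and at 989 and 1012 CPM in tCD115+ and 760 and 725 CPM in nCD115+. Its tumor libraries exceeded all naive libraries, by a log2 fold change of 0.34 (SE 0.08, adjusted p = 0.0366) in the CD115- and 0.43 (SE 0.08, adjusted p = 0.0201) in the CD115+ subset, edgeR with Benjamini-Hochberg adjustment. Cox5b was measured at 142 and 129 CPM in tCD115- and 106 and 107 CPM in nCD115-, and at 145 and 146 CPM in tCD115+ and 116 and 111 CPM in nCD115+. The tumor libraries were again all above the naive ones, with log2 fold changes of 0.34 (SE 0.07, adjusted p = 0.033) and 0.36 (SE 0.07, adjusted p = 0.0276), edgeR with Benjamini-Hochberg adjustment.

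Cox5a was measured at 133 and 114 CPM in tCD115- and 95.6 and 95.8 CPM in nCD115-, and at 110 and 119 CPM in tCD115+ and 87.4 and 85.2 CPM in nCD115+, with log2 fold changes of 0.37 (SE 0.09, adjusted p = 0.047) and 0.41 (SE 0.09, adjusted p = 0.0347), edgeR with Benjamini-Hochberg adjustment. Ndufa12, an accessory subunit at the matrix arm, was measured at 25.6 and 23.6 CPM in tCD115- and 18.8 and 17.1 CPM in nCD115-, and at 27.7 and 26.2 CPM in tCD115+ and 20.9 and 19.4 CPM in nCD115+. Its log2 fold changes were 0.46 (SE 0.09, adjusted p = 0.0299) and 0.42 (SE 0.09, adjusted p = 0.0346), edgeR with Benjamini-Hochberg adjustment. Both genes were separated between hosts in each subset.

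In the CD115+ subset alone Atp5a1 (0.30, SE 0.07, adjusted p = 0.045) and Ndufa10 (0.34, SE 0.07, adjusted p = 0.0275) also passed the edgeR test with Benjamini-Hochberg adjustment, as did Atp5k and Ndufv2, named here after their values were seen. Whether the effect of the tumor on these differs between subsets is the interaction above, which called none. Against the general direction, Cox7a2l was measured at 160 and 148 CPM in tCD115- and 204 and 182 CPM in nCD115- (-0.33, SE 0.09) and Atp5sl at 17.98 and 22.9 against 28.5 and 25.8 CPM (-0.41, SE 0.12), neither of which was called (adjusted p = 0.0598 and 0.067, edgeR with Benjamini-Hochberg adjustment). Both were also the 2 most negative of the 4 members below 0 in the CD115+ subset (-0.20 and -0.16).

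**Figure D5:**
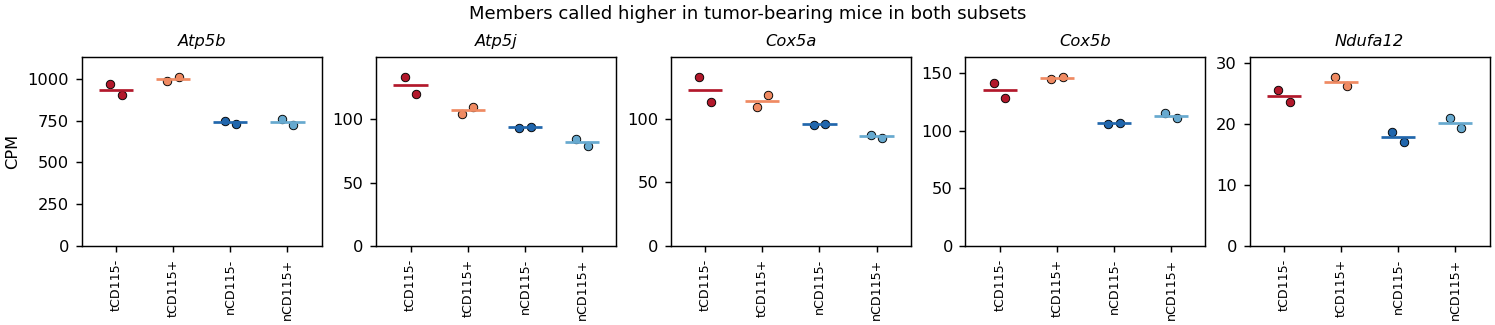
CPM of the 5 members called higher in TB than in naive mice in both subsets, with 1 point per library and lines at the mean of 2 libraries. In each panel the 4 libraries of TB mice lie above the 4 of naive mice, for Atp5b at 904 to 1012 CPM against 725 to 760 CPM.

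The number of calls between hosts depended on which libraries were fitted, while the medians moved less. In the CD115- subset 40 members were higher without replicate 2 of tCD115- (14% of all genes) and 1 without replicate 1 (1.54% of all genes), while 1 was higher without replicate 2 of nCD115+ (0.975% of all genes) and 0 in each of the other 5 fits (0.074% to 0.918%). In the CD115+ subset 31 and 36 were higher without replicates 1 and 2 of tCD115- (12.4% and 13.6% of all genes), 1 without either replicate of nCD115- (2.2% and 2.86%) and 0 in each fit without 1 library of tCD115+ or nCD115+ (0.118% to 0.466%). The median ranged from 0.08 to 0.26 in the CD115- and from 0.19 to 0.28 in the CD115+ subset over these fits. Of 15 alternatives, the calls in the CD115- subset were kept by 9 for Atp5j, 7 for Ndufa12 and Cox5b, 6 for Atp5b and 5 for Cox5a, and those in the CD115+ subset by 11 for Atp5b, 9 for Ndufa10, Ndufa12, Cox5a, Cox5b and Atp5j, and 7 for Atp5a1. With the 4 libraries compared fitted alone, no member was called in the CD115- subset (0.117% of all genes higher and 0.195% lower), and 37 were higher and 1 lower in the CD115+ subset (15% of all genes in each direction).

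Other mitochondrial genes were described in the same fits. Of the 17 genes of the citric acid cycle and pyruvate dehydrogenase, which feed NADH and succinate to the chain, 3 were higher and none lower in tCD115+ than in nCD115+ (median 0.20, all 17 positive), and 2 were higher and none lower in tCD115- than in nCD115- (median 0.13). Of 78 mitochondrial ribosomal protein genes, 10 were higher in the CD115+ and none in the CD115- subset (medians 0.24 and 0.16, with none lower). Of 80 tested cytosolic ribosomal protein genes, 1 was higher in each subset and none lower (medians 0.09 and 0.06). These counts stand beside 6.09% of all genes higher in the CD115+ and 3.19% in the CD115- subset. Between the TB subsets, 3 genes of the citric acid cycle list were lower and none higher (median -0.14), as were 20 mitochondrial ribosomal protein genes with 2 higher (median -0.12) and 15 cytosolic ones with none higher (median -0.18). As shares these are 17.6%, 25.6% and 18.8% lower, near the 19.9% of all genes. The shares higher were 0%, 2.56% and 0%, below the 17.7% of all genes.

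Of 6 further genes of the chain outside the naming rule, all 6 were positive in both host comparisons, with 1 called in the CD115- and 3 in the CD115+ subset. Atpif1, the inhibitor of ATP synthase, was higher in both (0.52 and 0.50, adjusted p = 0.034 in each), Cyc1, the heme subunit cytochrome c1 of complex III, was called in the CD115+ subset (0.36, adjusted p = 0.0354), as was Cycs, cytochrome c itself (0.40, adjusted p = 0.045), all by edgeR with Benjamini-Hochberg adjustment. Cycs was also lower in tCD115- than in tCD115+ (-0.32, adjusted p = 0.037, edgeR with Benjamini-Hochberg adjustment).

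Markers of other cells and of proliferation moved with the hosts as well. All 10 cell cycle genes were positive in each host comparison, with 3 called higher in the CD115- and 7 in the CD115+ subset (medians 0.42 and 0.59). Of 6 tested dendritic cell genes 5 were lower in the CD115- and 4 in the CD115+ subset, with summed levels of 24.9 to 40.5 CPM in TB against 61.2 to 121 CPM in naive mice, and of 6 tested B cell genes 3 were lower in each. Their part in the values of the respiratory chain genes was not tested. In the subset comparisons the markers that moved included the neutrophil granule genes. Of these 12, 11 were called higher and 1 lower in tCD115-, and 10 higher and 0 lower in nCD115-. Of 8 T and NK cell genes, 7 were higher in tCD115-, at summed levels of 73.3 to 112 CPM against 6.09 to 6.11 CPM in tCD115+. In nCD115-, 4 of the 8 were higher, at 50.9 to 62.4 CPM against 5.77 to 7.42 CPM in nCD115+. The part of these cells in the subset comparisons was not tested.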

How the data were processed

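RNA-Seq libraries of the 8 samples were made with a stranded mRNA kit. Deposited are whole-number read counts per gene, made by the authors' alignment and counting and not normalized, and the authors' FPKM values (reads per transcript length and depth), used only for levels between genes. Per the labels, the processing notes list HISAT2 2.0.5, StringTie 1.3.3b, Bowtie2, BWA, DESeq2 and mm10 without roles. The table's fold changes and p-values of the authors' comparisons, and 12 further columns of per-sample values, were not used.

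From the counts, genes were filtered with filterByExpr, scaled by TMM and fitted with edgeR 4.0.16 (R 4.3.3, limma 3.58.1; robust quasi-likelihood, 1 mean per group, all 8 libraries, 4 residual degrees of freedom), with Benjamini-Hochberg adjustment over 13211 genes. CPM are TMM scaled, and each standard error (SE) is the size of the log2 fold change divided by the square root of its quasi-likelihood F statistic. With 2 libraries per group, p-values measure only the spread between replicate libraries, estimated over all 4 groups and drawn toward that of other genes. The members and lists were chosen with earlier results of these data known. Values are given for the 2 most abundant members per complex, up to 2 called members per complex, comparison and direction, members past 2-fold, isoform sets and Sdh genes, except for an item that is not reported here. Alternatives were DESeq2 1.42.0, its size factors, library totals, other filters, the 4 libraries compared, a replicate block and leaving out each library. Figures used Python 3.11.15 and matplotlib 3.10.9.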

Additional observations from a re-analysis of the deposited data

How the results depend on the processing

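With 2 libraries per group and median prior degrees of freedom of 3.65, the counts of calls depend on the fit. Percentages here are the shares of all genes called in the same fit and direction. DESeq2 called 10 members lower in tCD115- than in tCD115+ (16.9%) and 1 past 2-fold. In nCD115- against nCD115+ it called 2 higher and 4 lower (13.6% and 7.31%) and 2 past 2-fold. In tCD115- against nCD115- it called 16 higher and 2 lower (9.75% and 10.8%), and in tCD115+ against nCD115+ 16 higher (8.86%). DESeq2 size factors in edgeR gave 10 lower (16.9%) and 1 past 2-fold between the TB subsets. Library totals alone gave 1 higher and 33 lower there (13.7% and 31.3%, members' median -0.24). They gave 12 lower between the naive subsets (7.7%), and 3 higher and 1 lower in tCD115- than in nCD115- (2.36% and 6.1%). Without a filter 1 member was lower between the naive subsets (2.48%). A minimum of 10 counts per library left 0 lower (3.48%) and 0 past 2-fold there, and 1 past 2-fold between the TB subsets. The 4 libraries compared gave 1 higher and 4 lower (14.4% and 7.14%) and 1 past 2-fold between the TB subsets. They gave 4 higher between the naive subsets (16.3%) and 0 higher in tCD115- than in nCD115- (0.117%). In tCD115+ against nCD115+ they gave 37 higher and 1 lower (15% each).

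Leaving out 1 library at a time gave 1 to 11 higher, 3 to 18 lower and 0 to 1 past 2-fold between the TB subsets, 0 to 5, 0 to 7 and 0 to 1 between the naive subsets, 0 to 40, 0 to 1 and 0 to 1 between tCD115- and nCD115-, and 0 to 36 higher between tCD115+ and nCD115+. The interaction counts stayed at 0 in each of these. Medians turned in direction without replicate 2 of tCD115- (TB subsets 0.00, interaction 0.03) and without replicate 2 of nCD115- (naive subsets 0.00). The lone library of a group is then assumed to vary like the other groups.

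Correlations of same-numbered deviations between groups ran from -0.16 to 0.20, with 0.09 for the TB subsets and 0.15 for the naive subsets. With 2 libraries per group, these values cannot settle whether the replicate numbers pair the samples. With the replicate block 5 members were higher and 15 lower between the TB subsets (17.4% and 20% of all genes). Between the naive subsets 1 was higher and 0 lower (11% and 2.45%), with 0 past 2-fold. In that fit 4 were higher in tCD115- than in nCD115- (2.17%) and 8 in tCD115+ than in nCD115+ (5.22%). No value of a named gene reversed. Of their values under the alternatives, 296 kept their call and 167 lost it. The median over members was the same with Cox4i2 at its bound. The cause of these changes was not tested. Depth limits Cox4i2, Cox6a2 and Cox7a1, whose means were under 1 CPM.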

Other observations

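Assembly factors, which build the complexes without remaining in them, were described in the same fits. Between the TB subsets 3 of 14 tested complex I assembly genes, 1 of 4 for complex II, 2 of 6 for complex III and 3 of 22 for complex IV were lower in tCD115-, with 1 for complex IV higher and none of 3 for complex V called. The shares lower were 21.4%, 25%, 33.3% and 13.6%, beside 19.9% of all genes. In the same order the shares higher were 0%, 0%, 0% and 4.55%, beside 17.7% of all genes. These few genes are not shown to differ from genes in general. Foxred1, Ndufaf7 and Acad9 were the most abundant of the complex I list, and of these Ndufaf7 was lower (28.6 against 42.4 CPM, log2 fold change -0.57, adjusted p = 0.0023, edgeR with Benjamini-Hochberg adjustment). Ttc19, known for complex III, had 2.80 CPM in tCD115- against 5.57 CPM in tCD115+ (-0.99, adjusted p = 0.0086, edgeR with Benjamini-Hochberg adjustment). Uqcc2 (18.2 against 26.1 CPM, -0.53, adjusted p = 0.01) and Sdhaf1 of complex II (6.41 against 9.48 CPM, -0.56, adjusted p = 0.01) were lower by the same edgeR test with Benjamini-Hochberg adjustment. In the host comparisons 1 of these genes was called, a complex IV assembly gene higher in tCD115+.

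Of 13 tested regulators of mitochondrial genes, 3 were higher and 2 lower in the CD115- cells of TB mice, and 2 higher and 1 lower in those of naive mice. The shares were 23.1% and 15.4% in TB mice (17.7% and 19.9% of all genes) and 15.4% and 7.69% in naive mice (11.8% and 3.23% of all genes), over a short list. Between hosts 1 was higher, in the CD115+ subset. Polg, the mitochondrial DNA polymerase, had mean levels of 185 CPM (tCD115-), 116 CPM (tCD115+), 157 CPM (nCD115-) and 112 CPM (nCD115+), and was called in both hosts (0.68, adjusted p = 0.0048, and 0.49, adjusted p = 0.034, edgeR with Benjamini-Hochberg adjustment). Gabpa, Yy1 and Nrf1 were not called in any comparison of 2 groups. Singled out after their values were seen, Gabpb1, the partner of GABPA, was higher in both CD115- groups (0.43, adjusted p = 0.0096, and 0.47, adjusted p = 0.013) and Ppargc1b, a coactivator of this gene class, was lower in both (-0.95, adjusted p = 0.014, and -0.83, adjusted p = 0.044), all by edgeR with Benjamini-Hochberg adjustment.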
